A study of Canis lupus familiaris with 15 samples.

Results

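Tight junctions seal neighbouring epithelial cells at their apical border and set how freely ions and water pass between them. Claudins form the strands of the junction. Some claudins tighten the seal and others, such as claudin-2, form pores for cations and water. Occludin is a further strand protein, and ZO-1, the product of TJP1, is a cytoplasmic scaffold that ties the strands to actin. The genes described here are CLDN1, CLDN2, CLDN3, CLDN4, CLDN7, OCLN and TJP1, chosen by name with earlier results of these data known. The platform annotation gives these 7 symbols to 9 of the 43035 probe sets on the array, 2 each for OCLN and TJP1 and 1 for each claudin. All 9 passed the filter on dim probe sets (a log2 intensity of 4 or more on 3 or more arrays). The brightest probe set stands for each gene, as it does for the 10287 genes measured in all.

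The RNA was that of MDCK (Madin-Darby canine kidney) cells, a dog epithelial line that polarises on porous Transwell filters, with 1 Affymetrix canine array per sample and 15 arrays in all. Cells spent 7 days on filters, and each group below received medium with 5% serum. The HGF + PD group (n = 4) was given hepatocyte growth factor (HGF) at 100 ng/ml for 24 h with a compound spelled PD09859 at 50 uM. The HGF + UO group (n = 3) had the same HGF treatment and UO126, also spelled as in the labels, at 10 uM. The HGF group (n = 4) had HGF alone, and the Control group (n = 4) had medium only. HGF activates the receptor MET and, through it, the MAPK pathway, and the series title calls both compounds MAPK inhibitors. Their doses differ, so their values stand side by side and were not compared with each other. The labels name no vehicle for Control, and none of the 15 samples was given a compound without HGF.

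Median intensities lay between 40.4 and 42.6 on all arrays. The highest was on HGF + UO replicate 2, where 57.8% of probe sets reached the filter level, against 56.9% to 57.3% on the other arrays. The epithelial markers KRT8, KRT18, EPCAM, CDH1, CDH16 and PAX8 all reached the filter level in every group, and KRT19 was not analysed here. The fibroblast markers COL1A1, COL1A2, DCN and LUM, the endothelial markers VWF, TEK and CLDN5, and the leukocyte markers LCP1, CSF1R and CD79A stayed below it on every array. Others of the same lists, COL3A1, PDGFRB, THY1, PECAM1, CDH5, KDR and CD3E, lay above it on every array with their brightest probe sets. CDH5 read 7.96 to 8.30, PECAM1 7.06 to 7.43 and CD3E 5.77 to 6.10. CD14 reached the level on some arrays. Summed fibroblast marker intensity was 177.3 to 190.1 in HGF + PD, 193.7 to 206.8 in HGF + UO, 187.2 to 218.8 in HGF and 186.8 to 208.8 in Control, with 3 of 7 markers at the filter level. For endothelium, with 3 of 6, it was 425.2 to 477.7, 429.3 to 472.2, 463.5 to 526.5 and 456.6 to 497.9 in the same order of groups. For leukocytes it was 104.8 to 111.5, 108.6 to 116.2, 108.6 to 113.5 and 117.2 to 121.7, with 2 of 6 at the filter level and in Control also PTPRC. The part of these markers in the results was not tested. The log2 ratio of the 3' to the 5' beta-actin probe set, a measure of RNA length and labelling, moved with HGF. It lay between 2.08 and 2.23 in HGF + PD, 2.11 and 2.19 in HGF + UO, 1.38 and 1.56 in HGF, and 2.17 and 2.29 in Control. Its part in the results below was not tested.

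HGF lowered CLDN2, OCLN and CLDN1 and raised CLDN4 and CLDN3, while CLDN7 and TJP1 did not pass the test. Of the 7 genes, 2 rose and 3 fell (adjusted p under 0.05 in the limma fit), against 28.0% of all measured genes that rose and 27.7% that fell. Their median difference was 0.01 on the log2 scale, against -0.01 over all measured genes. With either compound added to HGF, CLDN2 and OCLN rose relative to HGF alone, and CLDN3, CLDN4, CLDN7 and TJP1 fell. The inhibitor arrays overlapped with Control for CLDN2, and CLDN4 went to about 1 log2 unit below Control. All values below are log2 intensities or log2 differences with the fitted standard error (SE) after ±, and p-values are adjusted over all 24904 probe sets kept. In bulk RNA, fewer cells expressing a gene and less of its RNA per cell cannot be told apart.

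**Figure D1:**
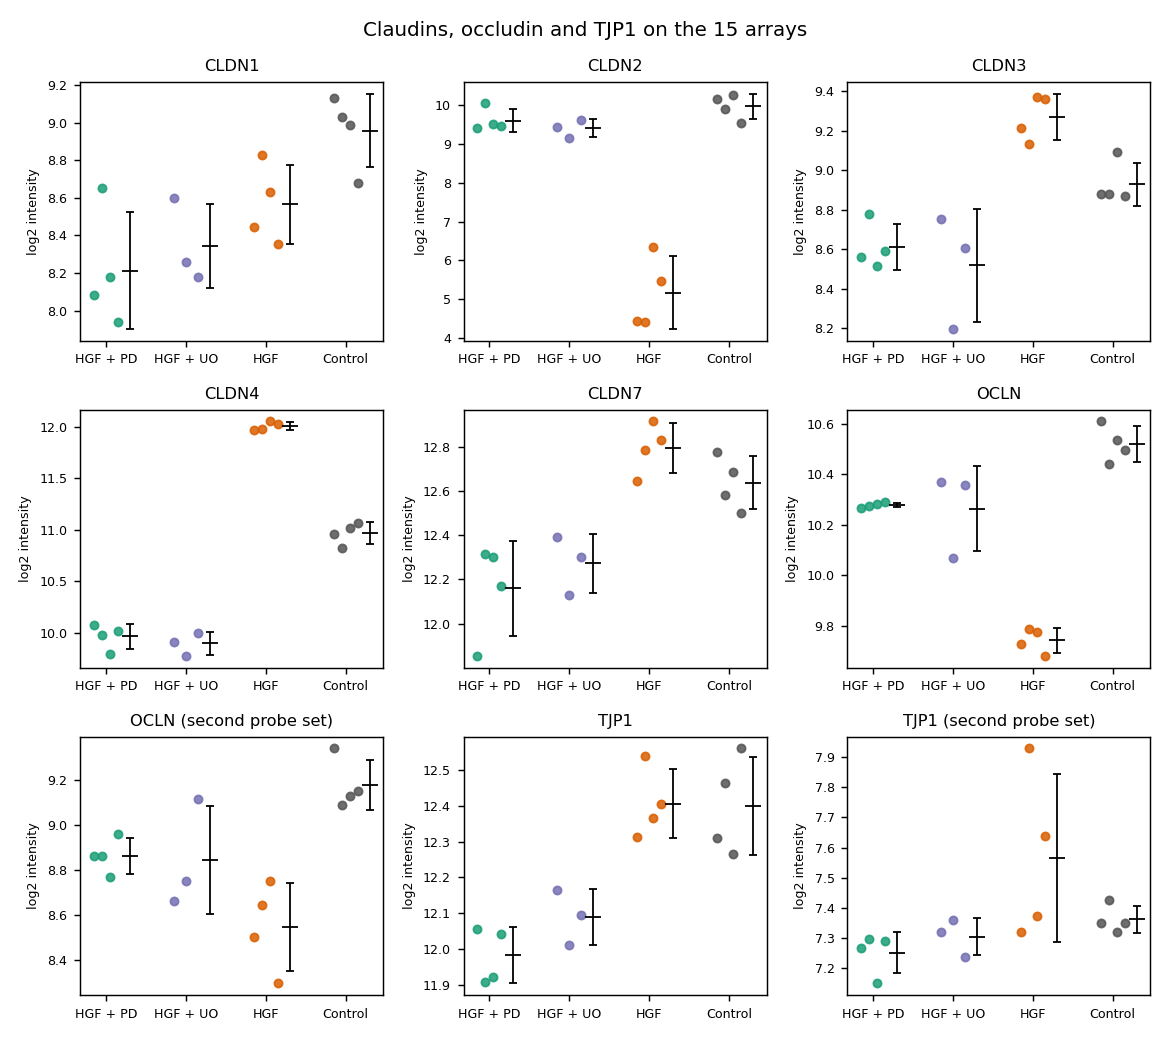
Log2 intensity (y axis, a scale per panel) of the 9 probe sets on each of the 15 arrays, by group; bars beside the points are mean ± SD. CLDN2 sits between 4.42 and 6.36 on the HGF arrays and above 9 on all others, whereas CLDN4 sits near 12 on the HGF arrays and near 10 on both sets of inhibitor arrays.

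CLDN2, the cation and water pore of leaky tubule epithelium, had the widest change. It read 9.41, 10.05, 9.51 and 9.45 in HGF + PD, 9.43, 9.17 and 9.62 in HGF + UO, 4.43, 4.42, 6.36 and 5.48 in HGF, and 10.16, 9.91, 10.27 and 9.54 in Control. The HGF arrays lay far below all 11 others, and they were also the most scattered, with an SD of 0.93 against 0.30 in HGF + PD, 0.23 in HGF + UO and 0.32 in Control. The difference of HGF from Control was -4.80 ± 0.35, 27.8-fold lower (adjusted p = 2.53e-08). HGF + PD exceeded HGF by 4.43 ± 0.35 (adjusted p = 5.92e-08) and HGF + UO exceeded HGF by 4.24 ± 0.38 (adjusted p = 2.62e-07). Since 2 HGF arrays lay close to the filter level, the size of the change depends on the background that GCRMA subtracted. With 32 added to every intensity it was -3.87 for HGF against Control, 3.52 for HGF + PD against HGF and 3.33 for HGF + UO against HGF. Both inhibitor groups overlapped with Control. Their differences from it did not pass, at -0.37 ± 0.35 for HGF + PD (95% interval -1.12 to 0.38, adjusted p = 0.451) and -0.56 ± 0.38 for HGF + UO (-1.37 to 0.25, adjusted p = 0.345). The SE is pooled over all groups, so these intervals also carry the scatter of the HGF arrays. In fits of the 2 groups alone, neither difference passed. The intervals do not show that CLDN2 was back at the Control level.

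OCLN, which encodes the strand protein occludin, followed the same order of groups over a narrower range. It read 10.27, 10.27, 10.28 and 10.29 in HGF + PD, 10.37, 10.07 and 10.36 in HGF + UO, 9.73, 9.79, 9.77 and 9.68 in HGF, and 10.61, 10.44, 10.54 and 10.49 in Control. The HGF arrays were lowest, the Control arrays highest, and the inhibitor arrays lay between them without overlap with either. HGF changed OCLN by -0.78 ± 0.06 (1.72-fold, adjusted p = 7.29e-08). HGF + PD was above HGF by 0.54 ± 0.06 (adjusted p = 3.82e-06) and HGF + UO by 0.52 ± 0.07 (adjusted p = 1.23e-05). Both stayed below Control, by -0.24 ± 0.06 (adjusted p = 0.00785) and -0.26 ± 0.07 (adjusted p = 0.0136). The UO value became -0.16 (adjusted p = 0.0525) without HGF + UO replicate 2. The second OCLN probe set gave -0.63 ± 0.11 for HGF against Control, 0.32 ± 0.11 for HGF + PD against HGF and 0.30 ± 0.12 for HGF + UO against HGF. On that probe set HGF + UO against Control did not pass (-0.33, adjusted p = 0.0559).

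CLDN4, a sealing claudin of tight epithelia, moved opposite to CLDN2. It read 10.08, 9.98, 9.79 and 10.02 in HGF + PD, 9.91, 9.77 and 10.00 in HGF + UO, 11.97, 11.98, 12.05 and 12.03 in HGF, and 10.95, 10.82, 11.02 and 11.07 in Control. The HGF arrays were highest, Control came next, and both inhibitor groups lay lowest, with overlap only between the inhibitor groups. HGF raised CLDN4 by 1.04 ± 0.07 (2.06-fold, adjusted p = 1.07e-08). HGF + PD was lower than HGF by -2.04 ± 0.07 (4.11-fold, adjusted p = 9.9e-12) and HGF + UO by -2.11 ± 0.08 (4.32-fold, adjusted p = 1.87e-11). Against Control, the differences were -0.998 ± 0.07 in HGF + PD (adjusted p = 1.06e-07) and -1.07 ± 0.08 in HGF + UO (adjusted p = 2.58e-07).

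CLDN3, also a sealing claudin, had the same order of groups as CLDN4 with smaller steps. It read 8.56, 8.78, 8.51 and 8.59 in HGF + PD, 8.75, 8.20 and 8.60 in HGF + UO, 9.22, 9.14, 9.37 and 9.36 in HGF, and 8.88, 8.88, 9.09 and 8.87 in Control. The HGF arrays lay above Control, and both inhibitor groups lay below it. HGF raised CLDN3 by 0.34 ± 0.11 (adjusted p = 0.0142). HGF + PD was lower than HGF by -0.66 ± 0.11 (adjusted p = 0.000102) and HGF + UO by -0.75 ± 0.12 (adjusted p = 6.76e-05). The falls below Control, -0.32 ± 0.11 with PD (adjusted p = 0.0343) and -0.41 ± 0.12 with UO (adjusted p = 0.0200), depended on single arrays. The UO value became -0.25 (adjusted p = 0.0992) without HGF + UO replicate 2, and the PD value -0.26 (adjusted p = 0.104) without Control replicate 3.

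CLDN7, a claudin found along the lateral membrane as well as at the junction, did not pass for HGF against Control (0.16 ± 0.10, 95% interval -0.06 to 0.37, adjusted p = 0.201). It read 11.85, 12.31, 12.30 and 12.17 in HGF + PD, 12.39, 12.13 and 12.30 in HGF + UO, 12.64, 12.79, 12.91 and 12.83 in HGF, and 12.78, 12.58, 12.68 and 12.50 in Control. The HGF and Control arrays overlapped, and every inhibitor array lay below them. With the arrays centred on their medians, HGF against Control passed (0.21, adjusted p = 0.0466). HGF + PD was lower than HGF by -0.63 ± 0.10 (adjusted p = 7.04e-05) and than Control by -0.48 ± 0.10 (adjusted p = 0.00189). HGF + UO was lower than HGF by -0.52 ± 0.11 (adjusted p = 0.000829) and than Control by -0.36 ± 0.11 (adjusted p = 0.0251). The last call was lost in 4 of 15 fits with 1 array left out. It was -0.29 (adjusted p = 0.121) without HGF + UO replicate 2 and -0.32 (adjusted p = 0.0665) without Control replicate 1.

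CLDN1, a claudin required for the water barrier of mouse skin, differed least clearly. It read 8.08, 8.65, 8.18 and 7.94 in HGF + PD, 8.60, 8.26 and 8.18 in HGF + UO, 8.44, 8.83, 8.63 and 8.36 in HGF, and 9.13, 9.03, 8.99 and 8.68 in Control. Control was highest, and its lowest array overlapped with the HGF arrays but not with the inhibitor arrays. HGF changed CLDN1 by -0.39 ± 0.16 (adjusted p = 0.0463), a call lost under several alternatives, among them quantile normalisation (-0.37, adjusted p = 0.0550). With a replicate block the call was kept (-0.39, adjusted p = 0.0191). HGF + PD against HGF gave -0.35 ± 0.16 (adjusted p = 0.0713), and without HGF + PD replicate 2, the highest of its group, -0.50 (adjusted p = 0.00738). It also passed with quantile normalisation (-0.42, adjusted p = 0.0303), median centring (-0.43, adjusted p = 0.0223) and a replicate block (-0.35, adjusted p = 0.0315). HGF + UO against HGF gave -0.22 ± 0.17 (95% interval -0.58 to 0.14, adjusted p = 0.303), and did not pass with any single array left out. Against Control, CLDN1 differed by -0.74 ± 0.16 with PD (adjusted p = 0.00199) and by -0.61 ± 0.17 with UO (adjusted p = 0.0176). The UO call was lost without HGF + UO replicate 2 (-0.57, adjusted p = 0.0680) and without HGF + UO replicate 3 (-0.53, adjusted p = 0.0811). The means with both compounds lay below the HGF mean, where those of CLDN2 and OCLN, also lowered by HGF, lay above it.

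TJP1, the ZO-1 scaffold, showed no detectable response to HGF on its brighter probe set (0.01 ± 0.07, 95% interval -0.14 to 0.15, adjusted p = 0.964). It read 12.06, 11.91, 11.92 and 12.04 in HGF + PD, 12.17, 12.01 and 12.09 in HGF + UO, 12.31, 12.54, 12.37 and 12.41 in HGF, and 12.31, 12.47, 12.26 and 12.56 in Control. The HGF and Control arrays overlapped, and every inhibitor array lay below them. HGF + PD was lower than HGF by -0.42 ± 0.07 (adjusted p = 9.96e-05) and than Control by -0.42 ± 0.07 (adjusted p = 0.000304). HGF + UO was lower than HGF by -0.32 ± 0.07 (adjusted p = 0.00230) and than Control by -0.31 ± 0.07 (adjusted p = 0.00751). On the second TJP1 probe set, HGF against Control did not pass either (0.20 ± 0.10, 95% interval -0.02 to 0.43, adjusted p = 0.119). This probe set passed for HGF + PD against HGF (-0.31 ± 0.10, adjusted p = 0.0200). It did not pass for HGF + UO against HGF (-0.26, adjusted p = 0.0689), nor against Control with PD (-0.11, adjusted p = 0.448) or UO (-0.06, adjusted p = 0.801). The mean of both probe sets did not pass for HGF + UO against Control (-0.18, adjusted p = 0.148).

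**Figure D2:**
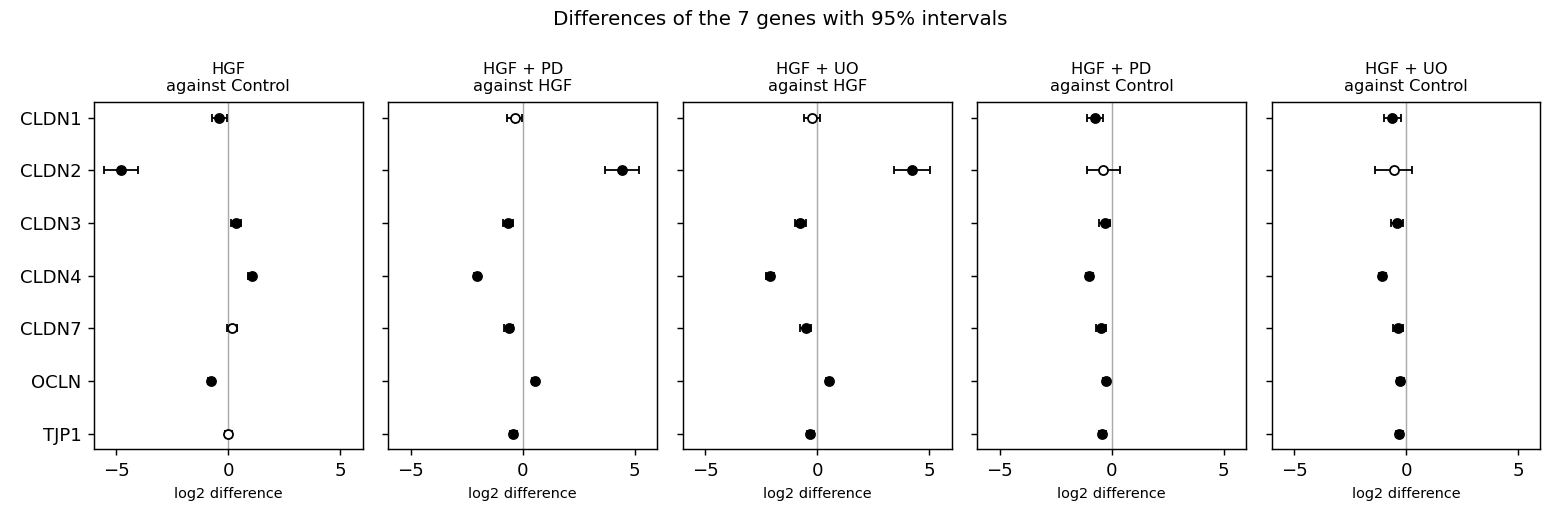
Log2 difference (x axis) of the 7 genes in the 5 comparisons, with 95% intervals of the fit; filled points passed the threshold and open points did not. CLDN2 spans -4.80 to 4.43, and in both comparisons with Control on the right all 7 points lie below 0.

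Counted over the 7 genes, HGF + PD against HGF raised 2 and lowered 4, against 29.9% of all measured genes raised and 25.8% lowered. HGF + UO against HGF gave the same counts, against 26.2% and 26.3%. The median differences of the 7 were -0.42 and -0.32, against -0.02 and -0.00 over all measured genes. These comparisons share the HGF arrays with HGF against Control and so are not independent of it.

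Relative to untreated cells, 6 of the 7 genes were lower with HGF + PD and 0 higher, against 13.5% of all measured genes lower and 21.8% higher. With HGF + UO the counts were also 6 and 0, against 10.3% and 13.8%. The member that did not pass was CLDN2 in each case, and its SE was the largest of the 7. The median difference was -0.42 with PD and -0.41 with UO, against -0.01 over all measured genes in each comparison. Without HGF + UO replicate 2, 2 genes (CLDN4 and TJP1) remained lower with UO, and CLDN1, CLDN3, CLDN7 and OCLN no longer passed. Both comparisons use the same Control arrays. Since no sample had a compound without HGF, a compound's effect on untreated cells and on the HGF response cannot be told apart. Since the members were chosen with earlier results of these data known, their counts beside the shares are a description.

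The other claudins were mostly dim. Of 19 listed, 13 had a probe set and 4 (CLDN10, CLDN12, CLDN16 and the claudin domain protein CLDND1) passed the filter. CLDND1 fell by 0.22 ± 0.06 with HGF (adjusted p = 0.00424). Relative to HGF it rose by 0.50 ± 0.06 with PD (adjusted p = 2.87e-06) and by 0.29 ± 0.06 with UO (adjusted p = 0.000991). CLDN12 passed in none of the 5 comparisons.

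CLDN10, which encodes cation- and anion-selective pore forms, reached the filter level on its brightest probe set only on the arrays with an inhibitor. It read 7.29, 6.85, 7.52 and 7.70 in HGF + PD, 5.96, 7.00 and 5.82 in HGF + UO, 3.16, 3.17, 3.18 and 3.08 in HGF, and 3.18, 3.18, 3.17 and 3.17 in Control. The HGF and Control arrays sat together far below every inhibitor array, so CLDN10 passed the filter through the groups in which it is high. HGF differed from Control by -0.03 ± 0.22 (adjusted p = 0.933). HGF + PD exceeded Control by 4.16 ± 0.22 (adjusted p = 6.78e-09) and HGF + UO exceeded it by 3.08 ± 0.23 (adjusted p = 4.64e-07), sizes that depend on the subtracted background. This probe set is of a type whose probes can match more than 1 transcript. Those of CLDN2, CLDN3 and several other genes named here are of the same type. The other CLDN10 probe sets kept did not follow the brightest. Over all arrays 1 read 4.06 to 4.27 and the other 4.34 to 4.59, near the filter level. For HGF + PD against Control they gave -0.08 and -0.02, with adjusted p = 0.132 and adjusted p = 0.737. Whether they detect CLDN10 RNA was not tested.

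CLDN16, which takes part in magnesium reabsorption in the thick ascending limb, read 10.73, 10.51, 10.36 and 10.89 in HGF + PD, 9.92, 9.95 and 10.11 in HGF + UO, 9.69, 9.55, 9.61 and 9.65 in HGF, and 9.86, 9.70, 9.67 and 9.73 in Control. The HGF + PD arrays lay above all others and the HGF + UO arrays above the rest. HGF against Control did not pass (-0.12 ± 0.09, adjusted p = 0.318). HGF + PD was above HGF by 1.00 ± 0.09 (adjusted p = 3.9e-07) and above Control by 0.88 ± 0.09 (adjusted p = 6.29e-06). HGF + UO was above HGF by 0.37 ± 0.10 (adjusted p = 0.00678), and against Control it did not pass (0.25 ± 0.10, adjusted p = 0.0980). CLDN10 and CLDN16 are named here after their values were seen.

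**Figure D3:**
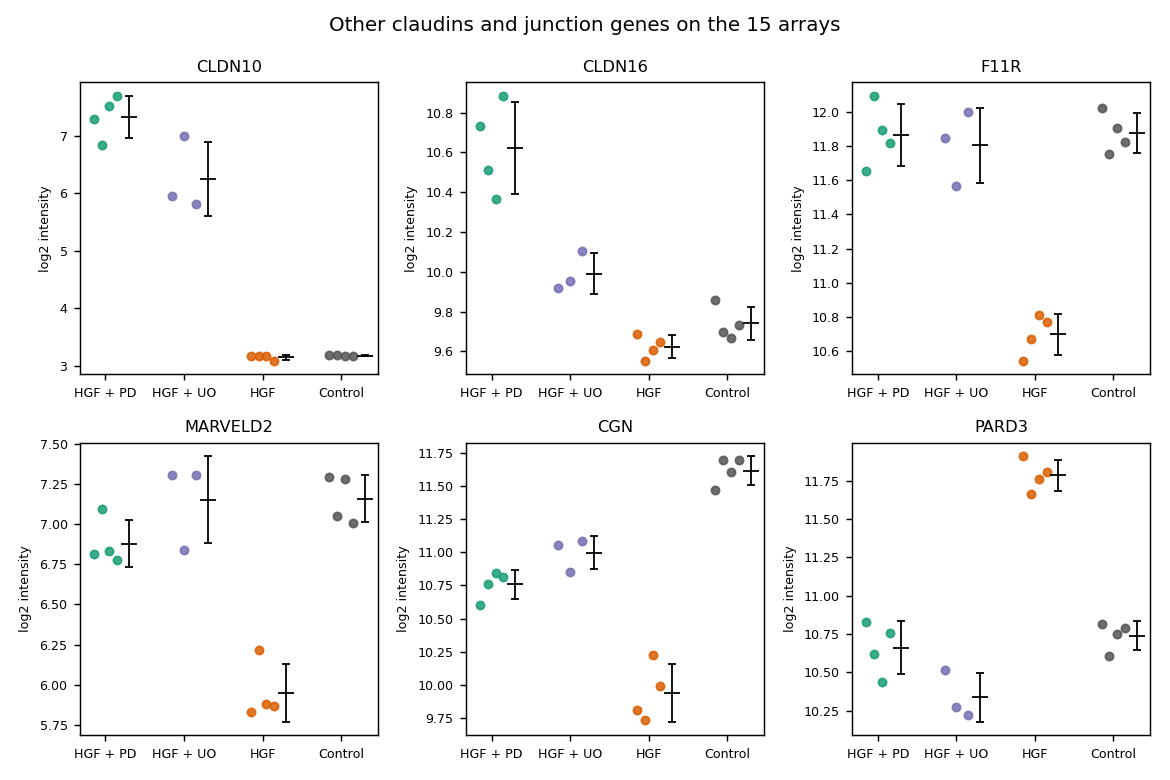
Log2 intensity (y axis, a scale per panel) of 6 further junction and polarity genes on each array, by group, with mean ± SD beside the points. CLDN10 lies above 5.8 on the inhibitor arrays and near 3.2 on all HGF and Control arrays, and F11R, MARVELD2 and CGN are lowest on the HGF arrays, where PARD3 is highest.

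Among other membrane proteins of the tight junction, HGF raised 2 of 8 measured and lowered 4, with a median of -0.22. Over all measured genes, HGF raised 28.0% and lowered 27.7%, with a median of -0.01. Those lowered included F11R (junctional adhesion molecule A), MARVELD2 (tricellulin, which seals the points where 3 cells meet) and IGSF5, a junctional adhesion molecule of kidney. F11R averaged 11.87 ± 0.18 in HGF + PD (SD, n = 4), 11.81 ± 0.22 in HGF + UO (n = 3), 10.70 ± 0.12 in HGF (n = 4) and 11.88 ± 0.12 in Control (n = 4). It changed by -1.18 ± 0.10 with HGF (adjusted p = 2.14e-07), and both inhibitor groups overlapped with Control (-0.01 with PD and -0.07 with UO). MARVELD2 changed by -1.21 ± 0.12 (adjusted p = 8.76e-07) and rose relative to HGF by 0.93 ± 0.12 with PD and 1.20 ± 0.13 with UO. IGSF5 changed by -1.39 ± 0.08 (adjusted p = 3.81e-09) and stayed below Control with PD (-0.64 ± 0.08) and UO (-0.43 ± 0.09). CXADR, an adhesion molecule and virus receptor, rose with HGF by 0.30 ± 0.05 (adjusted p = 0.000185). A further CXADR probe set agreed in sign (0.29), and another read -0.03 (adjusted p = 0.734).

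Of 14 plaque proteins measured, HGF raised 4 and lowered 3, with a median of -0.02. The shares over all measured genes were 28.0% raised and 27.7% lowered. CGN (cingulin, which links ZO-1 to actomyosin) read 10.60 to 10.85 in HGF + PD, 10.85 to 11.08 in HGF + UO, 9.73 to 10.23 in HGF and 11.47 to 11.70 in Control. It fell with HGF by 1.68 ± 0.10 (adjusted p = 2.79e-09) and was below Control by -0.86 ± 0.10 with PD and -0.62 ± 0.11 with UO. PATJ, a scaffold of the Crumbs complex, fell with HGF by 1.06 ± 0.11 (adjusted p = 1.47e-06) and by 0.93 to 1.25 on 4 other probe sets. ARHGEF2, a guanine nucleotide exchange factor held at the junction, rose by 0.69 ± 0.12 (adjusted p = 0.000215). YBX3, the ZO-1 partner ZONAB, rose by 0.24 ± 0.02 (adjusted p = 2.66e-07). Both were lower with either compound than with HGF alone, ARHGEF2 by -0.91 with PD and -0.77 with UO, and YBX3 by -0.21 with PD and -0.37 with UO.

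Of 12 apical polarity genes measured, HGF raised 5 and lowered 4, with a median of 0.24. The shares over all measured genes were 28.0% raised and 27.7% lowered. PARD3, the Par complex scaffold that positions tight junctions, read 10.44 to 10.83 in HGF + PD, 10.22 to 10.52 in HGF + UO, 11.66 to 11.91 in HGF and 10.61 to 10.81 in Control. It rose with HGF by 1.04 ± 0.09 (adjusted p = 1.51e-07), with 0.51 to 0.78 on 3 other probe sets. DLG1, a basolateral scaffold, rose by 0.49 ± 0.08 (adjusted p = 0.000148). The Crumbs complex members MPP5 and CRB3 fell by 0.40 ± 0.07 (adjusted p = 0.000155) and 0.35 ± 0.08 (adjusted p = 0.00187), and another CRB3 probe set did not pass (-0.06). Relative to HGF, 6 of the 12 were lower with PD and 7 with UO, and 2 were higher with each. Over all measured genes, 25.8% were lower and 29.9% higher with PD, and 26.3% were lower and 26.2% higher with UO. These comparisons share the HGF arrays with HGF against Control.

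**Figure D4:**
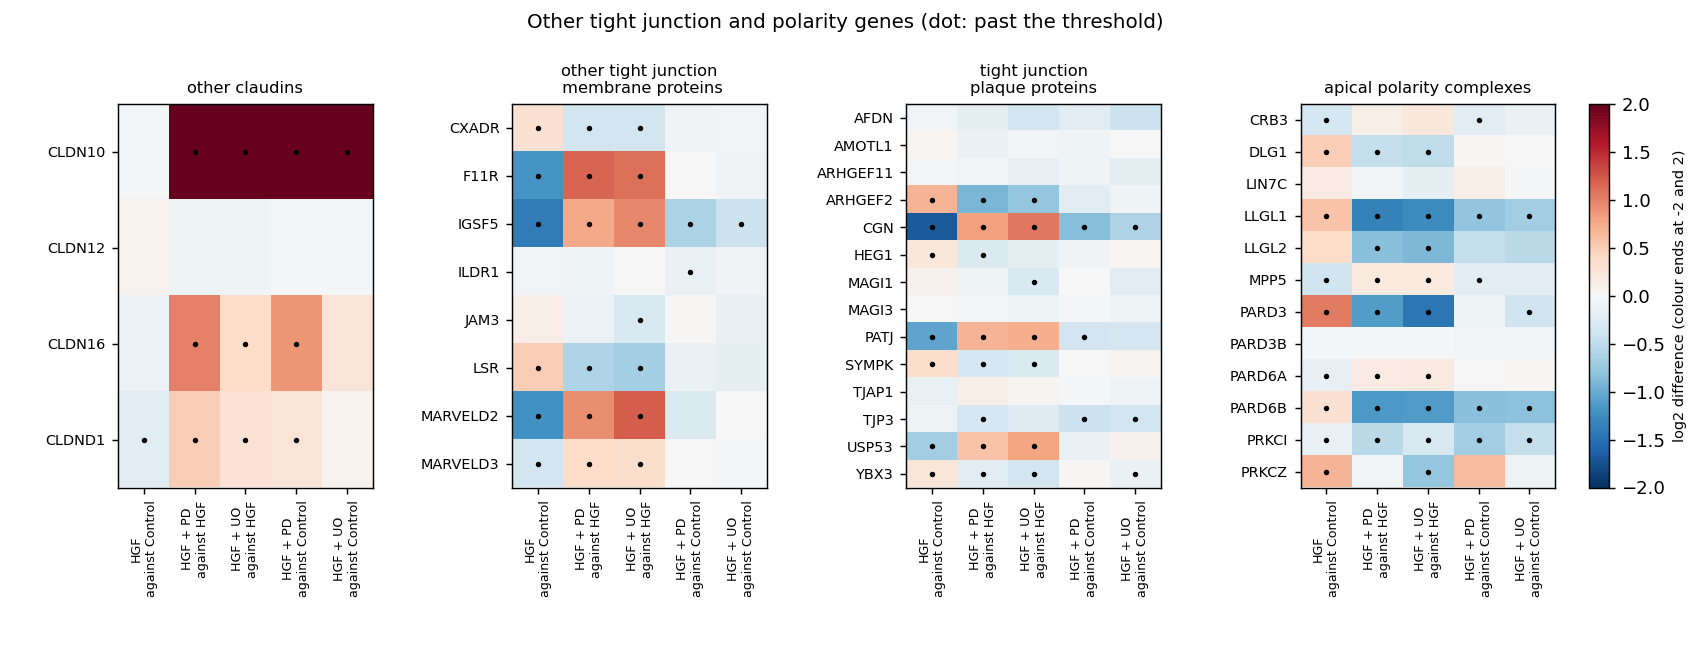
Log2 difference (colour, ending at -2 and 2) of the measured genes of 4 lists (rows) in the 5 comparisons (columns); a dot marks a gene past the threshold. F11R, IGSF5, MARVELD2, CGN and PATJ are blue for HGF against Control and red for both compounds against HGF, and PARD3 has the opposite colours.

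Of 13 transcription factors of epithelial junction genes, HGF raised 3 and lowered 3, with a median of 0.03. The shares over all measured genes were 28.0% raised and 27.7% lowered. SNAI2, a repressor of claudin and occludin genes in several epithelial lines, read 9.83 to 10.05 in HGF + PD, 8.64 to 9.29 in HGF + UO, 13.68 to 13.93 in HGF and 7.79 to 8.64 in Control. Its HGF arrays lay above all others, and it stayed above Control by 1.92 ± 0.18 with PD (adjusted p = 1.53e-06) and by 0.83 ± 0.19 with UO (adjusted p = 0.00574). The HGF + UO and Control arrays overlapped. KLF4, an epithelial zinc finger factor, rose by 3.605 ± 0.16 with HGF (adjusted p = 1.76e-10), and its other probe set read 0.02 (adjusted p = 0.722). ELF3 and EHF, epithelial ETS factors, fell by 0.98 ± 0.13 (adjusted p = 1.12e-05) and 0.58 ± 0.06 (adjusted p = 2.49e-06). EHF rose relative to HGF by 0.59 ± 0.06 with PD and 0.41 ± 0.07 with UO, whereas ELF3 did not pass (0.22 with PD and 0.18 with UO).

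The epithelial markers also moved with HGF, with 1 of 6 higher (CDH1, E-cadherin, by 0.60 ± 0.09) and 4 lower. Over all measured genes, 28.0% were higher and 27.7% lower. CDH16, the kidney-specific cadherin, differed by -2.997 ± 0.19, PAX8 by -1.57 ± 0.11, EPCAM by -0.73 ± 0.11 and KRT18 by -0.48 ± 0.07. The 2 other CDH16 probe sets gave -2.10 and 0.50. The summed intensity of the 6 markers was 74633 to 95304 in HGF + PD, 80820 to 88654 in HGF + UO, 74683 to 91064 in HGF and 104474 to 114576 in Control. The part of these changes in those of the junction genes was not tested.

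The genes whose profiles came nearest to CLDN2 and CLDN4 were taken by the smallest root mean square difference over the 15 arrays, after each profile was centred on its mean. These were the 2 members whose group means spanned at least 1 log2 unit. Nearest to CLDN2 were PRR15 (0.33), EFCAB10 (0.34) and SPAG6, a protein of the ciliary axoneme (0.40). All 3 shared with CLDN2 a higher value on HGF replicate 3 than on the other HGF arrays, over which they were chosen for likeness. It was 5.46 for PRR15 against 4.02 to 4.51, 7.77 for EFCAB10 against 6.54 to 7.22, and 6.03 for SPAG6 against 4.36 to 4.86. Nearest to CLDN4 were TRIB1, a pseudokinase (0.12), ABCB1, the drug efflux pump P-glycoprotein (0.16), and ITGA2, the collagen-binding integrin subunit (0.18). Since they were chosen for likeness to CLDN4 over the same arrays, their differences from Control are a description. They were -1.04 and -1.25 for TRIB1, -1.21 and -0.96 for ABCB1, and -1.16 and -1.35 for ITGA2, with PD and UO in that order.

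**Figure D5:**
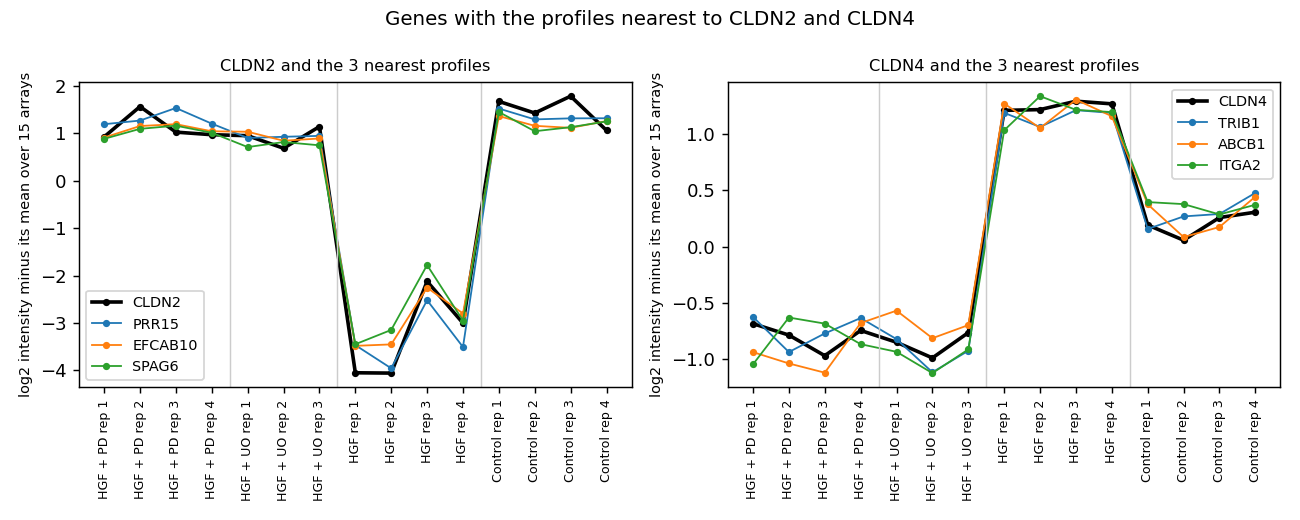
Log2 intensity minus its mean over the 15 arrays (y axis) for CLDN2 and CLDN4 (black) and the 3 genes nearest to each (colours), array by array (x axis). CLDN2 and its neighbours dip on the 4 HGF arrays with the shallowest dip on replicate 3, and CLDN4 and its neighbours peak there and are lowest with either inhibitor.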

How the data were processed

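The authors deposited 1 linear intensity per probe set and array; the submitters' processing notes name GCRMA, which subtracts a sequence-dependent background, normalises between arrays and compresses dim probe sets towards a floor. Its version and a genome build are not given in the sources used here, so no coordinates are printed. Values were set on the log2 scale as deposited. The 111 control probe sets were left out of the tests, and 24904 of 43035 probe sets passed the filter. Symbols came from the platform annotation, and a probe set with several symbols stayed unnamed. Protein and promoter sequences were not used here.

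One limma 3.58.1 fit (R 4.3.3; lmFit with 1 mean per group over 15 arrays, eBayes with a trend) gave all 5 comparisons, with Benjamini-Hochberg adjustment over the probe sets kept and a threshold of 0.05. It was also run on simulated data with changes planted in far fewer probe sets than were called here. That run cannot show how the fit behaves with as many changes as these data hold. Arrays are biological replicates per the labels, which do not mention separate cultures, so p-values measure the spread between these samples. The number of arrays limits the precision. Alternatives were 2 other filters, quantile normalisation, median centring, an added intensity of 32, eBayes without a trend, 2-group fits, a replicate block, the mean of a gene's probe sets and leaving out each array.

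The members and gene lists were chosen with earlier results of these data known. Named from each list were the 4 genes with the lowest adjusted p for HGF against Control among those past the threshold. For each member whose group means spanned at least 1 log2 unit, the 3 genes with the nearest centred profile were named. CLDN10, CLDN16 and the cell type markers are given besides.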

Additional observations from a re-analysis of the deposited data

Results flagged for a closer look

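In 105 groups of 4 arrays (35 probe sets of the genes named or listed above), 11 had a lowest or highest array set apart from the other 3 by Dixon's test at the 95% level. Chance flags about 1 group in 20, and the groups share arrays. Among the members, CLDN2 was high on HGF + PD replicate 2 (10.05, the others 9.41 to 9.51) and CLDN3 was high on Control replicate 3 (9.09, the others 8.87 to 8.88). HGF replicate 2 stood apart for 4 genes besides SNAI2 (13.68, the others 13.90 to 13.93), namely TRIB1 (13.27, the others 13.39 to 13.42), EHF (9.90, the others 9.81 to 9.82), MARVELD2 (6.22, the others 5.83 to 5.88) and CLDN12 (4.28, the others 3.99 to 4.03). Control replicate 1 stood apart for PRR15 (9.50, the others 9.27 to 9.30), YBX3 (13.85, the others 13.82) and SNAI2 (8.64, the others 7.79 to 7.92). CLDN10 was low on HGF replicate 4 (3.08, the others 3.16 to 3.18), where all values lay below the filter level.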

How the results depend on the processing

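Of 1070 values recomputed under the alternatives, 1028 were unchanged. Part of these had little or no room to change, so the tally overstates how far the results were tried. Leaving out an array of a group outside a comparison keeps the difference and alters only its SE and adjusted p. The mean of a gene's probe sets repeats the main value for each claudin, which has 1 probe set. For a gene difference, unchanged means the same direction and the same side of the threshold. For a count of probe sets or members past the threshold, it means within 1.5 times of the main count. Of 120 differences per gene, all were unchanged for CLDN2 and CLDN4, 100 for CLDN1 and 111 for CLDN3. For CLDN7 and TJP1 115 each were unchanged, and for OCLN 118. Counts of probe sets past the threshold stayed within 1.5 times in all 5 comparisons. CLDN1 for HGF against Control lost its call with no filter (-0.39), quantile normalisation (-0.37), median centring (-0.34) and in 10 of 15 fits with 1 array left out, where all 15 ranged from -0.48 to -0.32. CLDN1 for HGF + PD against HGF passed with quantile normalisation (-0.42), median centring (-0.43) and a replicate block (-0.35), and ranged from -0.50 to -0.26 with single arrays left out. For HGF + UO against HGF, CLDN1 ranged from -0.35 (without HGF + UO replicate 1) to -0.13 (without HGF replicate 2), and was -0.14 without HGF + UO replicate 3. CLDN7 for HGF against Control passed with median centring (0.21). TJP1 for HGF against Control changed sign with quantile normalisation (-0.012) and ranged from -0.040 to 0.059 with arrays left out. Against Control, CLDN3 with PD lost its call with no filter (-0.32). That call was also lost in 5 of 15 fits with 1 array left out, which ranged from -0.37 to -0.26. With UO, calls were lost in a fit of the 2 groups alone for CLDN3 (-0.41) and OCLN (-0.26), and over the mean of its probe sets for TJP1 (-0.18). With arrays left out, the UO differences were -0.74 to -0.53 for CLDN1, -0.53 to -0.25 for CLDN3, -0.42 to -0.29 for CLDN7 and -0.31 to -0.16 for OCLN. Calls were lost in 2 of these 15 fits for CLDN1, 2 for CLDN3, 4 for CLDN7 and 1 for OCLN. In these fits 2 to 6 members passed, 2 without HGF + UO replicate 2. The cause of these changes was not tested. The labels do not say whether arrays of the same replicate number were paired. Correlations of their deviations ran from -0.25 to 0.41. In no comparison did every array correlate best with its own number, the most being 3 of 4 for HGF + PD against HGF. So few arrays cannot decide whether the numbers pair the samples. With the replicate block, 13924, 13850, 12919, 8820 and 5550 probe sets passed in the order HGF against Control, HGF + PD and HGF + UO against HGF, and HGF + PD and HGF + UO against Control, and no other member call changed. Near the filter level, the sizes of the CLDN2 and CLDN10 differences depend on the subtracted background. For CLDN10 an added intensity was not examined.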
